A study of Caenorhabditis elegans with 14 samples.

Results

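The comparison described here is that of *skpo-1* mutant worms with N2 worms on *E. coli* OP50, the standard laboratory food of *Caenorhabditis elegans*, across all genes. Its members were chosen by strain and bacterium, as the 3 libraries of the mutant on *E. coli* against the 4 libraries of N2 on *E. coli*, which are 7 of the 14 RNA-seq libraries of the study. The mutant strain, GF89, carries *ok1640*, a deletion allele of *skpo-1* on chromosome II, and N2 is its wild-type parent. Both strains were placed on the bacteria at the L4 stage, the last larval stage, and whole animals were taken for RNA after 16 h, as day 1 adults, with no sorting of tissues. The other 7 libraries are of the same strains on *E. faecalis* OG1RF, 4 of the mutant and 3 of N2. The mutant is a single strain with a single allele, so the deletion and any other difference between GF89 and N2 cannot be told apart.

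SKPO-1 is a heme peroxidase, an enzyme that uses hydrogen peroxide to oxidize other molecules, and it carries a ShkT domain. In worms, dual oxidases make the peroxide and peroxidases use it to crosslink tyrosines of collagens in the cuticle. The cuticle is a collagen matrix laid down by the epidermis. A new one is made at every molt, with waves of collagen transcripts whose members differ from stage to stage, and loss of some of these collagens makes animals short (dumpy), rolling or blistered. Worms placed at the L4 stage pass through their last molt before they are adult.

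The 7 libraries on *E. coli* held 15174830 to 36682565 counts on genes. N2 replicate 2 stood apart from the other N2 libraries. Its 10 most abundant genes took 5.83% of its counts, against 12.7 to 17% in the other 6 libraries on *E. coli*. Summed markers of body wall muscle were 1618 CPM in it (CPM, counts scaled to a common library size with TMM factors) against 5013 to 5275 CPM in the other N2 libraries, and those of germline and oocytes were 3881 against 10083 to 10659 CPM. Markers of epidermis, intestine, pharynx, muscle, neurons and germline were measured on *E. coli*, and no marker that the files hold was at 0 in all 7 libraries. Male markers (3 genes) summed to 1.15 to 1.76 CPM in the mutant and 0.615 to 2.35 CPM in N2. In a bulk sample, fewer cells of a type and less RNA per cell cannot be told apart.

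Of 15685 genes tested, 101 changed between *skpo-1* and N2 on *E. coli* (0.644% of the genes tested), 89 higher (0.567%) and 12 lower (0.0765%) in the mutant. Calls required a Benjamini-Hochberg adjusted P under 0.05 in the quasi-likelihood test of edgeR, and a log2 fold change, mutant over N2, of 1 or more in size. The median log2 fold change of all tested genes was -0.04, and 45.8% of them were positive. At an unadjusted P below 0.05 there were 1474 genes, 837 higher and 637 lower. The libraries of the strains did not overlap in 99 of the 101 called genes and in 8.43% of all tested genes.

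**Figure D1:**
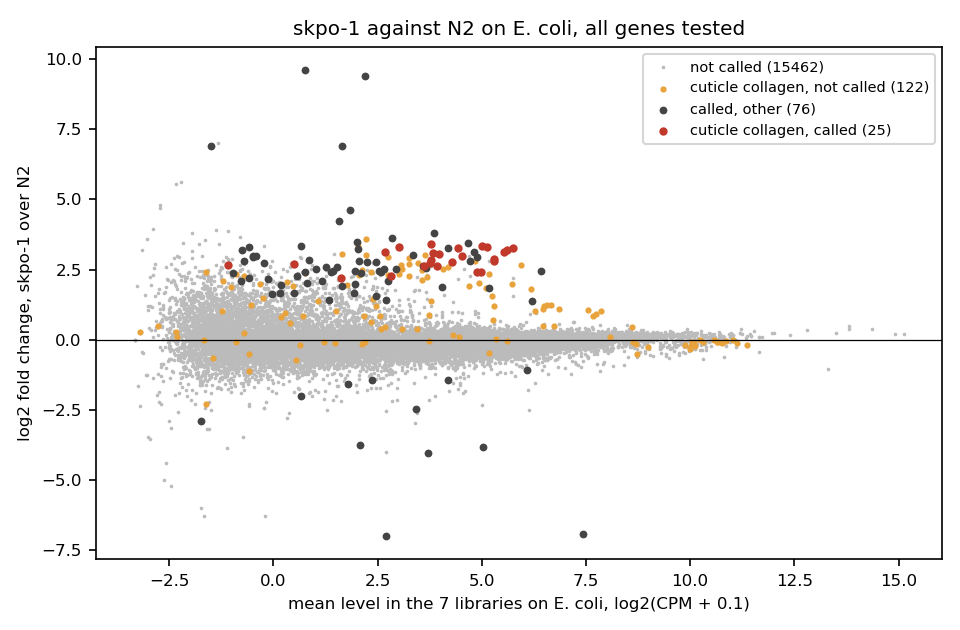
Log2 fold change of *skpo-1* over N2 on *E. coli* (y axis) against the mean level in the 7 libraries (x axis, log2 of CPM + 0.1) for the 15685 genes tested. Called genes lie mostly above 0, and the 25 called cuticle collagens (red) lie in the middle of the range of levels. The collagens with the very highest levels (orange, far right) lie near 0.

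The mutated gene itself had 2.46, 2.35 and 2.66 CPM in the mutant libraries, against 292, 283, 301 and 314 CPM in N2. The log2 fold change came to -6.90 with an SE of 0.245 (Benjamini-Hochberg adjusted P = 4.44e-10, quasi-likelihood test of edgeR), and no mutant library came near an N2 library. The gene lies at II 8400299 to 8404848 (minus strand, WBcel235).

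The called genes had different patterns over the libraries. Some had nearly the same level in every library of a strain. In others the mutant libraries were spread over more than 2-fold, often with replicate 3 the highest. Of the 89 genes called higher, the mutant libraries lay within 2-fold of each other in 27 and further apart in 62, and mutant replicate 3 was the highest mutant library in 72. Of the 12 genes called lower, the mutant libraries lay within 2-fold in 9.

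F13D2.1 fell further than any other called gene whose libraries did not overlap. It had 0.0933, 0.0783 and 0.0699 CPM in the mutant, against 12.9, 7.17, 11.6 and 12.7 CPM in N2. These were 6 counts in the 3 mutant libraries together and 971 counts in the 4 N2 libraries, so that N2 was higher by a ratio of 122.7 (95% binomial interval 56.2 to 335, for counting error only). F13D2.1 lies on chromosome X (11163956 to 11189615, minus strand), away from the mutated gene, and overlaps C05C9.1, *gnrr-6* and *gnrr-7* on the other strand. Whether the counting used strand is not given in the sources used here, so reads of overlapping genes cannot be told apart. Of the genes named below, *dhs-26*, *gba-2*, *nhr-178*, *clec-210*, *dpy-4*, *ptr-18*, *pqn-32*, *abu-13*, *appg-2*, M195.2, T06D8.10 and T04D3.5 also overlap a gene on the other strand.

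*gstk-1*, which encodes a kappa-class glutathione S-transferase, had 1.68, 1.37 and 0.839 CPM in the mutant, against 19.7, 33.3, 17.2 and 17.2 CPM in N2 (log2 fold change -4.04, SE 0.387). *ccg-1* had 3.14, 3.88 and 4.75 CPM in the mutant, against 55.9, 56.3, 49.9 and 55.2 CPM in N2 (-3.80, SE 0.216). *fmo-3*, a flavin-containing monooxygenase, had 0.311, 0.666 and 0.559 CPM in the mutant, against 7.62, 7.09, 3.99 and 8.54 CPM in N2 (-3.75, SE 0.396). In all 3 genes the lowest N2 library was several times above the highest mutant library. By edgeR, their Benjamini-Hochberg adjusted P were 9.88e-05, 1.91e-07 and 0.000293. Smaller decreases were those of Y75D11A.3 (log2 fold change -2.45), Y69A2AR.12 (-2.01), C47F8.1 (-1.58), T03D3.5 (-1.45), C04G6.6 (-1.44) and T04D3.5 (-1.07). T04D3.5 overlaps the guanylyl cyclase gene *gcy-35* on the other strand, which had a log2 fold change of -1.84 and was not called. *gst-19*, a further glutathione S-transferase, was called on 3 counts in the mutant and 35 in N2 (N2 over mutant 8.84, 95% binomial interval 2.79 to 44.9). The call of *gst-19* was lost when any 1 of the 14 libraries was left out.

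**Figure D2:**
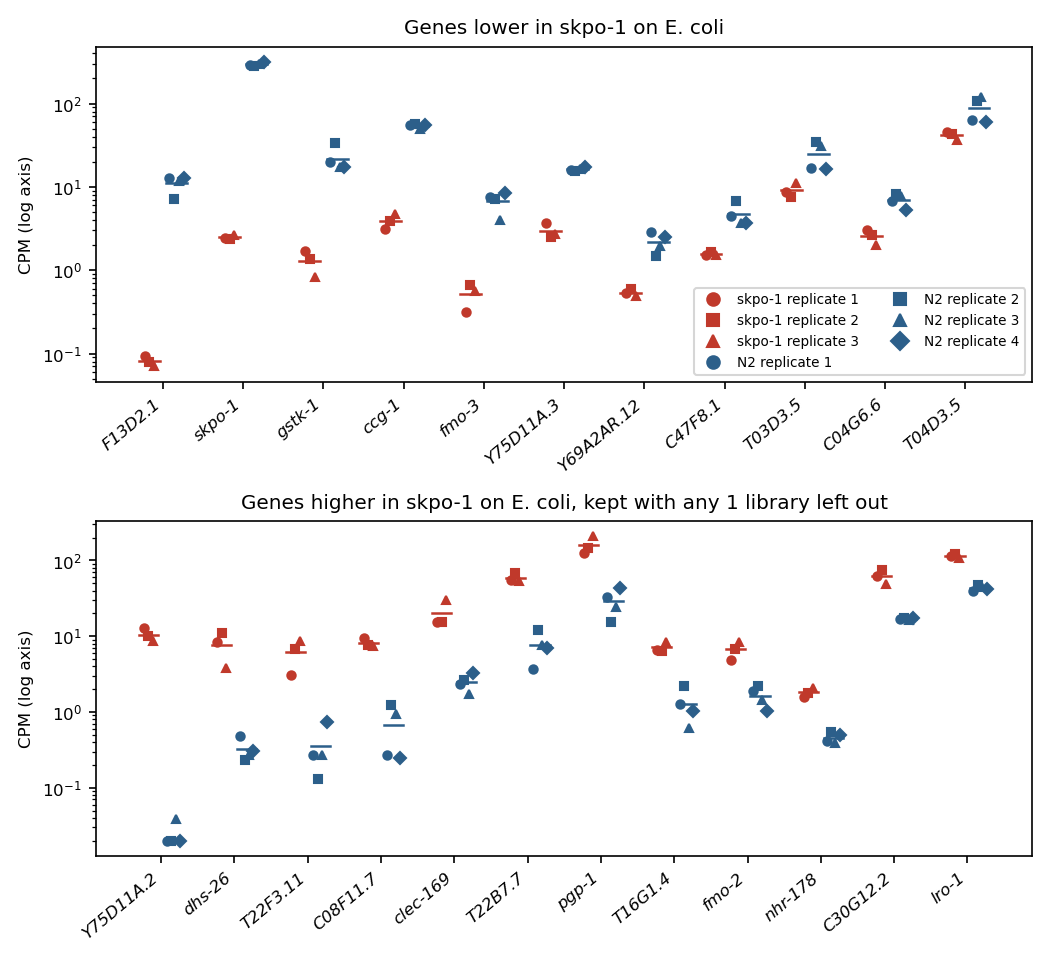
CPM on a log axis in each library on *E. coli*, with *skpo-1* (red, left of each pair) and N2 (blue, right), marker shape for the replicate and a bar at the mean. The upper panel has 11 of the 12 genes called lower and the lower panel 12 of the genes called higher. Values below 0.02 CPM, among them 3 N2 values of 0 for Y75D11A.2 and their mean, are drawn at 0.02.

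Among genes that were higher, Y75D11A.2 was close to a presence and absence difference. It had 12.7, 10.1 and 8.74 CPM in the mutant, against 0, 0, 0.0387 and 0 CPM in N2. These were 791 counts against 1 (ratio 1043, 95% binomial interval 187 to 41264), so the lower end of the ratio rests on a single N2 count. Its neighbour on chromosome X, Y75D11A.3, fell. The genes lie at X 1742830 to 1743681 (plus strand) and X 1745096 to 1746217 (minus strand), with a gap of 1414 bases. Y75D11A.3 had 3.70, 2.51 and 2.73 CPM in the mutant, against 15.9, 15.7, 16.3 and 17.5 CPM in N2 (log2 fold change -2.45, SE 0.309). The pair thus moved in opposite directions, each without overlap between strains.

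In some other increases the mutant libraries also lay close together. *lro-1* had 113, 121 and 109 CPM in the mutant, against 39.7, 47.2, 45.2 and 42 CPM in N2, with the smallest increase of any called gene (log2 fold change 1.39, SE 0.160). C30G12.2 had 62.2, 74.1 and 49.5 CPM in the mutant, against 17.1, 17.3, 16.3 and 17.5 CPM in N2 (1.86, SE 0.209). C08F11.7 had 9.51, 7.71 and 7.41 CPM in the mutant, against 0.272, 1.23, 0.930 and 0.246 CPM in N2 (3.49, SE 0.466). In these genes the mutant libraries lay close together and above all N2 libraries. T22B7.7 (log2 fold change 2.94) showed the same, with 56, 67.3 and 53.6 CPM in the mutant, against 3.68, 12.19, 7.71 and 6.95 CPM in N2.

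Several of the increased genes encode enzymes and transporters of detoxification or lipid metabolism. *pgp-1*, a P-glycoprotein efflux pump of the ABC family, had 127, 145 and 208 CPM in the mutant, against 33, 15.2, 24.2 and 43.5 CPM in N2 (log2 fold change 2.47, adjusted P = 0.000919 by edgeR). *fmo-2*, the flavin-containing monooxygenase known from hypoxia and lifespan studies, had 4.79, 6.85 and 8.46 CPM in the mutant, against 1.91, 2.20, 1.43 and 1.04 CPM in N2 (1.99), so that it and *fmo-3* moved in opposite directions. *dhs-26*, a short-chain dehydrogenase, had 8.27, 11.1 and 3.78 CPM in the mutant, against 0.476, 0.235, 0.271 and 0.307 CPM in N2 (4.63). The cytochrome P450 gene *cyp-13A5* (2.79), the steroid dehydrogenase family gene *stdh-2* (3.21) and the nuclear hormone receptor gene *nhr-178* (1.95) were also called higher. T22F3.11 (4.23), K02E11.10 (3.63), T16G1.4 (2.44) and the glucocerebrosidase-like gene *gba-2* (2.09) rose as well. The call of *cyp-13A5* was lost without mutant replicate 3, and that of *gba-2* without mutant replicate 2.

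The families of these genes were read against the 0.567% called higher and 0.0765% called lower of all tested genes. Of 47 ABC transporters tested 1 was called (2.13%), with a median log2 fold change of 0.19 (0.02 without N2 replicate 2). Of 63 cytochrome P450 genes 1 was called (1.59%, median -0.14, and -0.04 without N2 replicate 2), and of 191 nuclear hormone receptors 1 was called (0.524%, median -0.13, and -0.01 without N2 replicate 2). Of 30 short-chain dehydrogenases 1 was called (3.33%), and the median was -0.20 with all libraries and -0.02 without N2 replicate 2, the library in which this family stood highest. Of 45 glutathione S-transferases, *gstk-1* and *gst-19* were called lower (4.44%) and 0 were called higher (0 at an unadjusted P below 0.05 and 0 in DESeq2). The family's median was -0.35, and 0.05 without N2 replicate 2, in which mean log2 CPM was 2.13, against 1.18 to 1.35 in the other N2 libraries. The median of all tested genes was -0.04.

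Of 237 C-type lectins listed, 114 were not tested. Of the others, *clec-169* and *clec-210* were called higher (1.63%, against 0.567% of all tested genes), a share that rests on these 2 genes. Among the tested lectins 0 were called lower (17 at an unadjusted P below 0.05 in each direction, 0 lower in DESeq2), and the median was -0.09. C-type lectins are sugar-binding proteins, many of them secreted by the intestine. *clec-169* had 15.5, 15.5 and 29.7 CPM in the mutant, against 2.31, 2.62, 1.74 and 3.26 CPM in N2 (log2 fold change 3.03). *clec-210* had 11.3, 12.8 and 8.81 CPM in the mutant, against 1.5, 2.01, 1.67 and 3.01 CPM in N2 (2.42). Neither gene's libraries overlapped between strains, and the call of *clec-210* was lost without mutant replicate 2.

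Genes at or near 0 in N2 need care. The insulin-like peptide gene *ins-8* had 0.0933, 0.940 and 0.769 CPM in the mutant and 0 CPM in all 4 N2 libraries. With 38 counts against 0 it was at least 16.7-fold higher, taking 3 counts over the N2 group as the floor. Its call was lost when any library except mutant replicate 1 was left out. The name F56A4.5 belongs to 2 identifiers on chromosome V that were each called higher, WBGene00021567 (9.20, 1.92 and 0 CPM in the mutant, 0 in N2) and WBGene00018913 (0, 7.01 and 14.1 CPM in the mutant, 0.0681, 0.0785, 0 and 0.0615 CPM in N2). Their estimated counts may be shared out between copies, and single values are uncertain. Summed, F56A4.5 had 9.20, 8.93 and 14.1 CPM in the mutant, against 0.0681, 0.0785, 0 and 0.0615 CPM in N2, and the sums were more even than either identifier.

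The largest family among the called genes was that of the cuticle collagens, the structural proteins of the cuticle. Of 174 collagens listed by symbol, 147 were tested, 25 were called higher (17%) and 0 lower, against 0.567 and 0.0765% of all genes tested. At an unadjusted P below 0.05 there were 81 higher and 2 lower, and DESeq2 called 53 higher and 0 lower. The median log2 fold change was 1.23, and 113 of the 147 were positive. Mean log2 CPM over the tested collagens was 3.76, 4.10 and 4.93 in mutant replicates 1, 2 and 3, against 3.26, 2.79, 3.17 and 2.23 in N2 replicates 1 to 4. The strains did not overlap, but mutant replicate 1 lay closer to N2 replicate 1 than to mutant replicate 3. The 8 epidermis markers had a median log2 fold change of 0.46, and *rol-6* among them was called. Their sums were 1065, 951 and 1515 CPM in the mutant, against 1385, 747, 1032 and 1585 CPM in N2, most of it from the abundant collagen *col-19* (948, 791 and 1342 CPM in the mutant, against 1263, 670, 900.1 and 1480 CPM in N2). *rol-6*, *wrt-2* and *nhr-73* did not overlap between strains, *nhr-73* only narrowly (lowest mutant value 0.435 CPM, highest N2 value 0.430 CPM). The other markers overlapped: *elt-3* (log2 fold change -0.20), *dpy-7* (0.40), *col-19* (-0.07), *ajm-1* (0.35) and *che-14* (0.51). *rol-6*, *dpy-7* and *col-19* are also in the list of collagens. The part of these markers in the result was not tested.

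That order recurred in single collagens. *dpy-5*, whose loss makes animals dumpy, had 30, 53 and 133 CPM in the mutant, against 10.4, 4.29, 11.2 and 2.89 CPM in N2 (log2 fold change 3.32, SE 0.601). *rol-6*, a collagen known from roller mutants, had 6.53, 14.3 and 28.7 CPM in the mutant, against 2.86, 1.02, 2.48 and 0.307 CPM in N2 (3.31, SE 0.666). *col-49*, with the smallest adjusted P of the family together with *col-63* (adjusted P = 0.00998 by edgeR), had 11.5, 19.7 and 54.6 CPM in the mutant, against 3.13, 2.12, 3.95 and 1.41 CPM in N2 (3.42, SE 0.552). All 25 called collagens had their highest mutant value in replicate 3, and 23 had their lowest N2 value in replicate 4. In 0 of the 25 did the mutant libraries lie within 2-fold of each other. A called gene with the same order that was not counted among the collagens was *rol-1* (3.45), a further gene of roller mutants, with 22.8, 37.8 and 96.8 CPM in the mutant, against 7.35, 2.88, 6.78 and 2.21 CPM in N2.

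**Figure D3:**
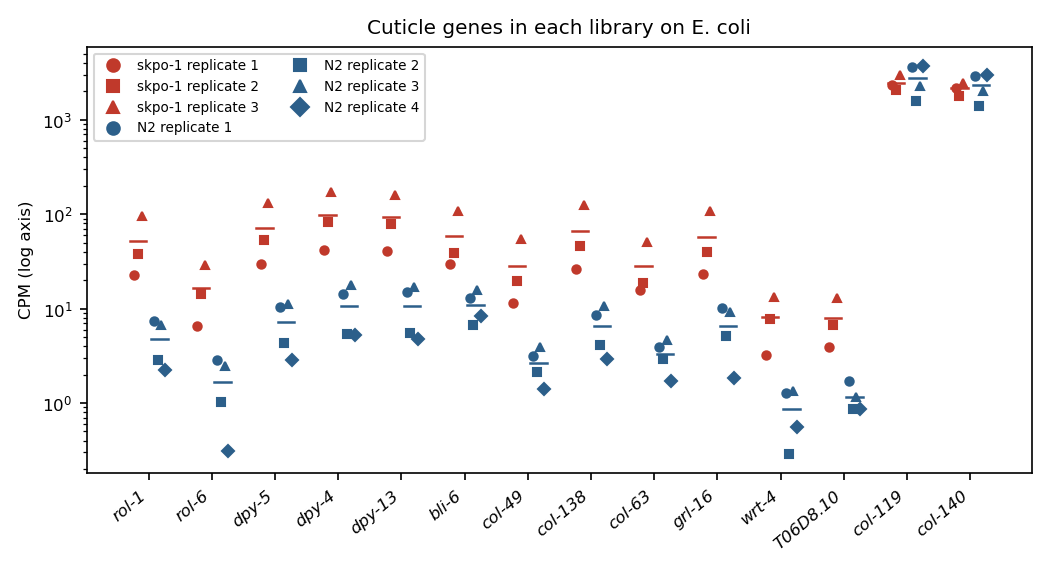
CPM on a log axis in each library on *E. coli* for 14 genes, with *skpo-1* (red, left) and N2 (blue, right), marker shape for the replicate and a bar at the mean. In the first 12 genes, all called higher, mutant replicate 3 (triangle) is the highest of the mutant libraries, while the abundant collagens *col-119* and *col-140* overlap between strains.

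The collagens called higher were of middle and low abundance, and the median log2 fold change of the most abundant collagens was near 0. Levels were compared per length, as CPM per kb of merged exons averaged over the 7 libraries, and the limits of 1, 10 and 100 CPM per kb were set after the values had been seen. The 49 collagens at 10 to 100 CPM per kb had a median log2 fold change of 2.49, and 19 were called higher. The 45 at 1 to 10 CPM per kb had a median of 2.07, with 4 called, and the 24 under 1 CPM per kb had a median of 0.66, with 2 called. The 29 collagens over 100 CPM per kb had a median log2 fold change of -0.07, with 10 positive and a range of -0.52 to 1.23. Of these 29, 0 were called in either direction by edgeR or DESeq2 (2 higher and 1 lower at an unadjusted P below 0.05). The least abundant of them were higher in the mutant without a call: *col-139* (1.04), *col-159* (0.84), *col-81* (1.05), *col-129* (0.90), *col-92* (1.08), *col-117* (1.23) and *col-142* (0.51). All tested genes had median log2 fold changes of 0.12, -0.08, -0.05 and -0.04 at these 4 levels, from under 1 to over 100 CPM per kb. Of the 1211 tested genes over 100 CPM per kb, 0 were called higher (3 at an unadjusted P below 0.05, 1 in DESeq2), so no other gene at that level was called higher either. Because the level includes the mutant libraries, the change itself helps set it. By the level in N2 alone, a choice added after seeing the data, the medians were 1.37 (34 collagens, 2 called), 2.46 (58, 17 called), 1.24 (29, 6 called) and -0.07 (26, 0 called), from under 1 to over 100 CPM per kb. The order of the lower 3 levels thus depended on that choice, and the value over 100 CPM per kb did not.

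The 29 abundant collagens made up 93.4% of the summed collagen CPM. Summed over them, the level was 26219, 21814 and 32979 CPM in the mutant, against 33909, 19114, 22899 and 36542 CPM in N2, so the strains overlapped. *col-119*, the most abundant per length, had 2359, 2063 and 2981 CPM in the mutant, against 3626, 1578, 2262 and 3684 CPM in N2 (log2 fold change -0.18), and *col-140* was next (-0.10). The 49 collagens at 10 to 100 CPM per kb summed to 1497, 2183 and 4783 CPM in the mutant, against 1142, 673, 1062 and 608 CPM in N2, without overlap. Without mutant replicate 3 the medians were 1.53 at 10 to 100 CPM per kb and -0.23 over 100, and without N2 replicate 4 they were 2.23 and 0.11.

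**Figure D4:**
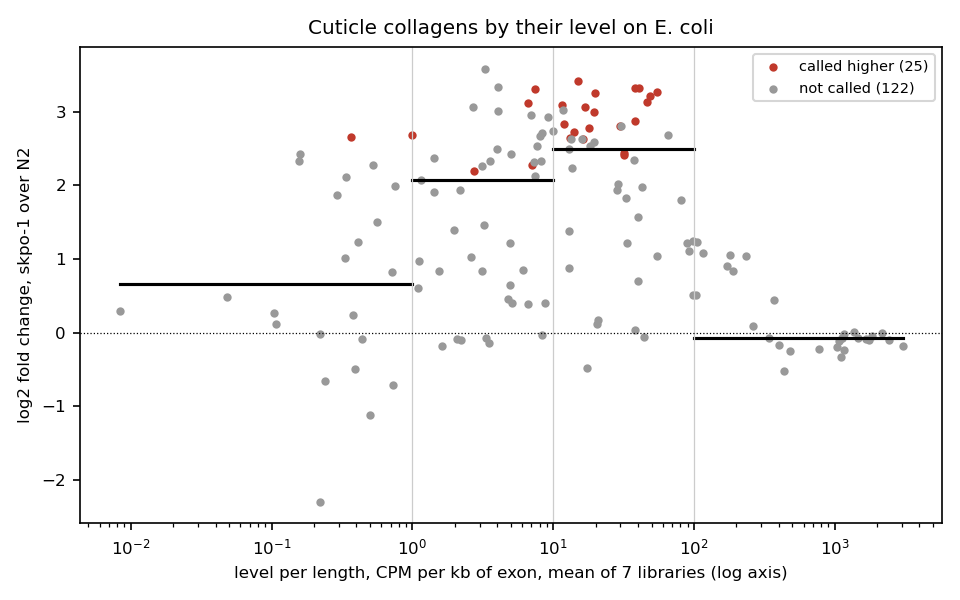
Log2 fold change of *skpo-1* over N2 for each of the 147 tested cuticle collagens against its level per length on *E. coli* (CPM per kb of exon, mean of 7 libraries, log axis). Black bars are the medians of the collagens under 1, at 1 to 10, at 10 to 100 and over 100 CPM per kb (0.66, 2.07, 2.49 and -0.07).

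Collagens with known mutant shapes were divided by the cuticle structure they belong to. Of 14 collagens of annuli, struts and roller mutants, 13 were positive, with a median log2 fold change of 2.59, and 5 were called higher: *dpy-5*, *rol-6*, *dpy-4* (3.21), *dpy-13* (3.13) and *bli-6* (2.43). The 6 furrow collagens, which line the grooves between annuli and whose loss switches on stress genes, had a median of 0.65, and 0 were called in either direction (1 higher and 0 lower at an unadjusted P below 0.05, 0 in DESeq2). *dpy-8* had 2.52, 5.17 and 9.44 CPM in the mutant, against 2.31, 0.759, 2.48 and 0.369 CPM in N2 (log2 fold change 1.94, not called). *dpy-7* overlapped between strains, with 3.92, 7.87 and 8.88 CPM in the mutant, against 3.13, 11, 5.62 and 0.615 CPM in N2 (0.40). The others had log2 fold changes of 1.03 (*dpy-9*), 0.85 (*dpy-3*), 0.46 (*dpy-2*) and -0.03 (*dpy-10*). All furrow collagens had their lowest value in N2 replicate 4. The difference between the furrow collagens and the other shape collagens was not tested.

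Calls were also made in several families that act around the cuticle without being collagens, against 0.567% of all tested genes called higher. Hedgehog-related genes encode secreted proteins made largely by epithelia. Of 59 listed, 40 were tested, 3 were called higher (7.5%, *grl-16*, *wrt-4* and *wrt-8*, log2 fold changes 3.112, 3.23 and 3.29) and 0 lower (1 at an unadjusted P below 0.05, 0 in DESeq2), with a median of 0.69 and 30 positive. *grl-16* had 23.4, 39.9 and 107 CPM in the mutant, against 10.2, 5.08, 9.11 and 1.84 CPM in N2, in the order seen for the collagens. *wrt-4* had 3.20, 7.83 and 13.2 CPM in the mutant, against 1.29, 0.288, 1.36 and 0.553 CPM in N2. All 3 calls were lost without mutant replicate 2 or 3 and without N2 replicate 2 or 4. Of 26 patched-related genes, which encode membrane proteins with a sterol-sensing domain, 25 were positive (median 0.38) and *ptr-18* (1.55) was called (3.85%).

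Of 60 tested *abu* and *pqn* genes, whose products are rich in glutamine and asparagine and include proteins of the pharyngeal cuticle, *abu-12* (log2 fold change 2.46), *abu-13* (2.37), *abu-14* (2.57) and *pqn-32* (2.77) were called higher (6.67%), and 43 were positive. The family median was 0.22. Of 30 astacin metalloproteases, *nas-14* (1.68) was called (3.33%) and 24 were positive (median 0.49). Also called with higher levels were *cdh-7* (3.36), a cadherin gene, ZK180.6 (3.79) and *cpg-19* (2.75), a chitin-binding protein gene.

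Of 31 genes of the molting cycle, 25 were positive with a median of 0.43, and 0 were called (9 higher and 0 lower at an unadjusted P below 0.05, 3 higher in DESeq2). The smallest unadjusted P were those of *mlt-9* (2.36, 7.71 and 9.30 CPM in the mutant, against 1.70, 1.28, 1.98 and 0.430 CPM in N2, log2 fold change 2.23) and *qua-1* (1.78), both needed for molting. Of 33 cuticlins and other zona pellucida proteins, 0 were called (1 at an unadjusted P below 0.05, 1 in DESeq2), and the median was 0.20. *cut-2*, a cuticlin, had 26.2, 42.2 and 48.7 CPM in the mutant, against 16.2, 8.37, 8.29 and 1.60 CPM in N2 (2.18, not called), and *cutl-5* had a log2 fold change of 2.01. The 15 enzymes of collagen modification and processing had a median of 0.03, with 0 called (0 at an unadjusted P below 0.05, 0 in DESeq2).

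The loss of *skpo-1* was not accompanied by a call in another named peroxidase. Of the other heme peroxidases and dual oxidases, *skpo-2* had 1.34, 3.6 and 4.05 CPM in the mutant, against 1.84, 0.733, 0.581 and 0.369 CPM in N2 (log2 fold change 1.79, adjusted P = 0.163 by edgeR), and it alone was called higher in DESeq2. The strains overlapped in this gene at mutant replicate 1 and N2 replicate 1. *skpo-3* (0.23), the molting peroxidase *mlt-7* (0.17), the peroxidasins *pxn-1* (0.03) and *pxn-2* (-0.25) and the dual oxidase *bli-3* (-0.09) had log2 fold changes near 0, and *hpx-2* and *duox-2* were below the filter on low counts. T06D8.10, a heme peroxidase family gene that the list by symbol did not hold and that was noted after its values were seen, was called higher. It had 3.95, 6.77 and 13.1 CPM in the mutant, against 1.70, 0.863, 1.16 and 0.861 CPM in N2 (2.80, adjusted P = 0.00618, edgeR). The 25 antioxidant enzymes had a median of -0.20 (-0.07 without N2 replicate 2), with 0 called (0 higher and 2 lower at an unadjusted P below 0.05, 0 in DESeq2), and those 2 were *gpx-4* (-1.11) and *gpx-7* (-1.08).

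Genes that respond to furrow loss, osmotic stress or wounding did not pass the test, nor did the transcription factors and transporter listed with them. Of 13 listed and tested, 0 were called (0 at an unadjusted P below 0.05, 0 in DESeq2), and the median was -0.03. *gpdh-1*, a glycerol synthesis enzyme that marks the osmotic response, had 3.45, 2.35 and 7.34 CPM in the mutant, against 3.47, 3.17, 3.02 and 6.58 CPM in N2 (log2 fold change 0.10). *nlp-29*, an antimicrobial peptide gene of the wounded epidermis, had 6.65, 7.67 and 9.44 CPM in the mutant, against 8.03, 13.1, 4.84 and 10.6 CPM in N2 (-0.22). Both overlapped between strains. Log2 fold changes of the others were -0.18 (*gpdh-2*), 0.36, -0.37 and 0.02 (the inositol transporters *hmit-1.1*, *hmit-1.2* and *hmit-1.3*), 0.08 and 0.30 (the trehalose synthases *tps-1* and *tps-2*), -0.20 and 0.02 (the SKN-1 targets *gst-4* and *gcs-1*), -0.20 and -0.03 (the transcription factors *elt-3* and *sta-2*) and -0.05 (the transporter *snf-12*). Of 18 epidermal antimicrobial peptide genes, 0 were called (3 higher and 1 lower at an unadjusted P below 0.05, 1 higher in DESeq2), and the median was -0.03. *nlp-34* (1.94) and *cnc-6* (3.18, at no more than 0.489 CPM in any library) had the smallest unadjusted P.

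Intestinal immune effectors, transthyretin-like genes and aspartic and cysteine proteases were lower at the median. In all of these families but the proteases, N2 replicate 2 had the highest mean level of the N2 libraries. Of 38 lysozymes, saposin-like and defensin-like genes, 5 were positive, the median log2 fold change was -0.67, and 0 were called (0 higher and 14 lower at an unadjusted P below 0.05, 2 lower in DESeq2). *spp-23* had 10.6, 9.67 and 10.3 CPM in the mutant, against 18, 58.5, 30.6 and 16.8 CPM in N2 (-1.61), and *spp-2* had 10.8, 6.81 and 12 CPM in the mutant, against 12.3, 141.8, 27.2 and 14.4 CPM in N2 (-2.33). In both, the mutant libraries were close together and N2 replicates 2 and 3 were the high ones. Without N2 replicate 2 the family's median was -0.16. The 50 transthyretin-like genes showed the same, with a median of -0.53 and 7 positive, but -0.06 without N2 replicate 2, and 0 were called (1 higher and 6 lower at an unadjusted P below 0.05, 0 in DESeq2). The smallest unadjusted P among them were those of *ttr-16* (-0.66) and *ttr-42* (-1.18). The 18 *irg* and *dod* genes had a median of -0.18 (0.01 without N2 replicate 2) and 0 calls (4 lower at an unadjusted P below 0.05, 1 lower in DESeq2), with *dod-24* at -1.76 and *irg-4* at -1.85. Aspartic and cysteine proteases (21 tested, median -0.37) had 0 calls in edgeR, 1 higher and 3 lower at an unadjusted P below 0.05 and 1 lower in DESeq2, with *asp-12* at -2.49 and *cpr-8* at -0.84. Their mean log2 CPM in N2 was highest in replicate 3 (7.24, against 7.01 in replicate 2). The strains did not overlap in this mean, but only narrowly (highest mutant value 6.690, lowest N2 value 6.694).

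Sperm genes were higher at the median in the mutant on *E. coli*. All 28 tested major sperm protein genes, which encode the motility protein of sperm, were positive with a median log2 fold change of 1.003, and 0 were called (14 higher and 0 lower at an unadjusted P below 0.05, 0 in DESeq2). *msp-142* had 4.23, 3.21 and 9.58 CPM in the mutant, against 1.16, 3.30, 1.43 and 1.97 CPM in N2 (1.48), and *msp-63* had a log2 fold change of 2.25. The gene copies of this family are alike, so single members are uncertain and the 28 are not separate observations. Their mean log2 CPM was 2.34, 1.87 and 3.55 in the mutant, against 1.37, 2.16, 1.57 and 1.78 in N2, so the strains overlapped. Of 43 genes of sperm formation, 35 were positive (median 0.79), with 0 called (6 higher and 0 lower at an unadjusted P below 0.05, 0 in DESeq2). *spe-18* (1.56) and *ssp-10* (1.23) had the smallest unadjusted P among them. Mean log2 CPM of these 43 genes did not overlap between strains. On *E. faecalis* both medians had the other sign, -0.57 for the major sperm proteins (2 of 28 positive) and -0.79 for the 43 genes (6 positive). The 8 sperm markers on *E. coli* summed to 22.7, 19.97 and 37.96 CPM in the mutant, against 11.4, 16.1, 16.9 and 12.23 CPM in N2. Like the collagens, they were highest in mutant replicate 3, and their part in the result on collagens was not tested. Sperm are made in the L4 stage and oocytes in the adult. The 7 vitellogenin and yolk receptor genes, which are expressed in adults, were all positive with a median of 0.35 (0.00 without N2 replicate 2), with *vit-3* at 0.50 and *vit-5* at 0.39, and 0 were called (0 at an unadjusted P below 0.05, 0 in DESeq2).

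The called genes were found on every nuclear chromosome. On chromosome II, 27 of 2802 tested genes were called (0.964%), against 0.482, 0.210, 0.827, 0.577 and 0.724% on chromosomes I, III, IV, V and X. Within 1 Mb of *skpo-1*, 6 of the other 419 tested genes were called (1.43%, against 0.644% of all tested genes), all higher: *col-77* (log2 fold change 2.87), M195.2 (2.98), *col-38* (2.41), *rol-6* (3.31), *appg-2* (2.27) and *abu-14* (2.57). The neighbours on either side, *dod-23* (-0.17) and *efl-3* (-0.06), were not called. *col-77* and M195.2 are neighbours of each other, with a gap of 1371 bases.

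The number of calls depended on single libraries. With 1 library on *E. coli* left out, 26 to 148 genes were called, and the lowest number was that without mutant replicate 3. Without mutant replicate 3, the 26 calls were 20 higher and 6 lower and held 0 collagens, and the median log2 fold change of the collagens was 0.78 in place of 1.23. Without mutant replicate 2 there were 39 calls (12 collagens), without N2 replicate 2 there were 56 (6), without N2 replicate 3 there were 57 (16), and without N2 replicate 4 there were 53 (10). Without mutant replicate 1 there were 148 calls, 37 of them collagens. With the spread estimated from the 7 libraries on *E. coli* alone there were 19 calls and 0 collagens among them, and DESeq2 on all 14 libraries made 316 calls with 53 collagens. Of the 101, 21 stayed called whichever library was left out, among them 6 of the genes called lower (F13D2.1, *skpo-1*, *gstk-1*, *ccg-1*, *fmo-3* and Y75D11A.3), and 0 of the 25 collagens were among the 21. Under all 22 alternative settings, 14 stayed called. They were these 6 together with Y75D11A.2, *dhs-26*, T22F3.11, C08F11.7, *clec-169*, C30G12.2, T22B7.7 and K02E11.10.

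**Figure D5:**
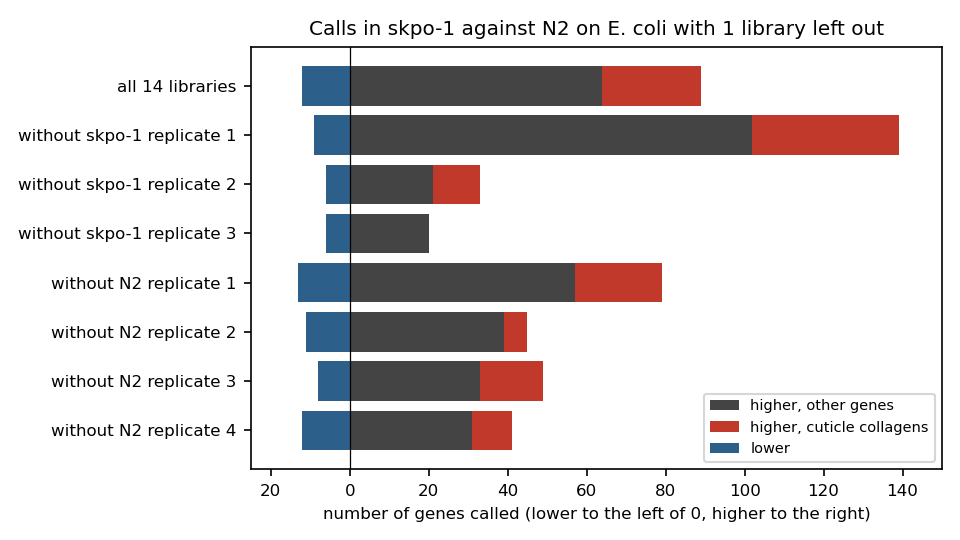
Number of genes called between the mutant and N2 on *E. coli* (x axis, lower to the left of 0 and higher to the right) with all 14 libraries and with each library on *E. coli* left out. Cuticle collagens (red) number 25 with all libraries and 0 without mutant replicate 3, while the number lower (blue) stays between 6 and 13.

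The libraries on *E. faecalis* held the same strains and entered the calls above through the shared fit, its estimate of spread and the filter on low counts. There, 80 of the 89 genes called higher on *E. coli* were positive and 11 of the 12 called lower were negative, where 47.1% of all tested genes were positive. The median log2 fold change of the 89 was 0.81 on *E. faecalis* and 2.72 on *E. coli*, and that of the 12 was -1.97 and -2.68. On *E. faecalis* the lowest mutant library exceeded the highest N2 library in 36 of the 89 genes, against 5.21% of all tested genes. The mutant libraries lay entirely below N2 in 11 of the 12, against 3.76% of all tested genes, and entirely above N2 in the remaining gene, *gst-19*. The difference between the bacteria was tested gene by gene, and 0 genes passed (1216 at an unadjusted P below 0.05, smallest Benjamini-Hochberg adjusted P = 0.0968 by edgeR). *fmo-2* had log2 fold changes of -0.14 on *E. faecalis* and 1.99 on *E. coli*, and T22F3.11 had -1.06 and 4.23, each with an adjusted P of 0.0968 for the difference. For C30G12.2 they were -0.05 and 1.86 (adjusted P = 0.161 for the difference, edgeR). *pgp-1* had 2.78 on *E. faecalis* and *lro-1* had 1.28, close to their values on *E. coli*.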

How the data were processed

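RNA-seq of whole worms was analyzed in 14 libraries, 7 of them on *E. coli*. The authors trimmed reads with Trimmomatic 0.36, estimated reads per gene with Salmon 1.2.1 against the WBcel235 transcriptome and summarized them with tximport. Per gene, the deposited values are expected counts that the authors had rounded. In the other deposited table the authors give a signal, counts normalized with DESeq2 1.26.0, which served here only as another scaling.

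Names were found for 19793 of 21982 identifiers. The filter of edgeR 4.0.16 (minimum count 10, minimum total 15) left 15685 genes. Counts were scaled by TMM, all 14 libraries were fitted together with 1 coefficient per condition, and edgeR's quasi-likelihood test was adjusted by Benjamini-Hochberg over all genes. Calls needed an adjusted P under 0.05 and a change of 1 or more on the log2 scale. The common coefficient of variation between replicates was 0.293. Intervals for counts are 95% and binomial.

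Residuals of the mutant and N2 libraries on *E. coli* with the same replicate number did not correlate positively (-0.0992, -0.205 and -0.109 for numbers 1, 2 and 3). Few pairs enter these correlations, so they cannot settle whether libraries were paired. The labels name replicates without saying which share a culture. P values treat each library as a replicate and compare the groups with a spread estimated over all 14 libraries. Family lists by symbol and markers were fixed as rules, but they and the comparison were chosen with earlier results of these data known. Named genes were the mutated gene, the 12 highest and 12 lowest calls without overlap, and the 10 smallest adjusted P. Up to 4 calls per list were also named (or, with none, the 2 smallest unadjusted P, for lists described). Further named were the peroxidases, furrow collagens and stress response genes that the lists by symbol held, calls within 1 Mb of *skpo-1* and neighbouring calls. A gene outside these is named only where the text says so or gives it as a neighbour or an abundant collagen. Lists have no test of their own. Alternatives were DESeq2 1.42.0, other scalings, no filter, fewer libraries, a replicate block and, for collagen levels, the N2 level alone. Methods were tested on simulated data, under R 4.3.3.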

Additional observations from a re-analysis of the deposited data

Results flagged for a closer look

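In groups of 4 libraries a library that lay far outside the range of the other 3 was looked for, over 195 lists, marker sums and genes in N2 on *E. coli*. There were 14 such cases, and 11 were in N2 replicate 2. Among separate groups the limit used would be passed by 1 in 20 by chance. The cases are not all separate, since *unc-54* and *myo-3* are also in the muscle list and among the muscle markers. The number of cases therefore cannot be set against that rate. Summed markers of N2 replicate 2 were 99.6 CPM for pharynx (374 to 440 CPM in the other N2 libraries), 1618 CPM for body wall muscle (5013 to 5275) and 3881 CPM for germline and oocytes (10083 to 10659). Its *unc-54* and *myo-3*, genes of muscle myosin, had 485 and 32.7 CPM. Its mean log2 CPM was 7.05 for muscle genes (8.04 to 8.22 in the others), 6.64 for germline and meiosis genes (7.11 to 7.18), 4.23 for antioxidant enzymes (3.57 to 3.68), 4.13 for short-chain dehydrogenases (3.32 to 3.46) and 0.38 for insulin-like peptides (-0.996 to -0.789). Its *ttr-16* had 389 CPM (166 to 173). With this library left out 56 genes were called, against 92, 57 and 53 without N2 replicates 1, 3 and 4. Leaving out any library also lowers the number of replicates, so the number of calls does not measure the part of this library.

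In N2 replicate 3, *ccg-1* had 49.9 CPM (55.2 to 56.3 in the others) and Y75D11A.2 had 0.0387 CPM (0 in the others), a single count. In N2 replicate 4, *col-104* had 1.54 CPM (5.13 to 6.32 in the others), the low end seen in that library for 23 of the 25 called collagens.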

How the results depend on the processing

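Called genes kept their direction in every alternative that tested them, which was all 22 for 96 of the 101. The other 5 (*gst-19*, *ins-8*, *wrt-8* and both identifiers of F56A4.5) were below the filter on low counts in the 7 libraries on *E. coli* alone and had 20. DESeq2 called 316 genes (279 higher, 37 lower, among them 53 collagens, 9 hedgehog-related and 9 *abu* and *pqn* genes), and 100 of the 101 were among them. With no filter on low counts 5 hedgehog-related genes were called. With only the 7 libraries on *E. coli* 19 were called (13 higher, 6 lower, with 0 collagens, 0 hedgehog-related and 0 *abu* and *pqn* genes), where fewer libraries set the spread. Leaving out 1 library at a time gave 26 to 148 calls (20 to 139 higher, 6 to 13 lower), with 0 to 37 collagens, 0 to 8 hedgehog-related and 0 to 5 *abu* and *pqn* genes. The cause was not tested.

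The labels do not say whether replicate numbers pair the libraries. With the replicate number as a block, 50 genes were called (42 higher, 8 lower, with 6 collagens, 0 hedgehog-related and 0 *abu* and *pqn* genes). With the block in the 7 libraries on *E. coli* it was 47 (41 higher, 6 lower, 20 collagens, 1 hedgehog-related and 0 *abu* and *pqn* genes). In those 7 libraries replicate 4 exists only in N2, so with the block N2 replicate 4 drops out of the contrast. That library had the lowest N2 value in 23 of the 25 called collagens. Genes near 0 that were not called changed sign. With the block in the 7 libraries log2 fold changes were 0.048 (*bli-3*), 0.050 (*sta-2*), 0.12 (*col-119*), 0.15 (*col-140*), 0.22 (*hmit-1.2*), 0.019 (*nlp-29*) and 0.27 (*snf-12*), and with the block in all libraries 0.094 (*snf-12*) and 0.072 (*sta-2*). *dpy-10* was 0.023 in DESeq2, 0.020 with median-of-ratios factors, 0.033 with the authors' scaling and 0.043 in the 7 libraries. *sta-2* was 0.00029 with median-of-ratios factors and 0.019 in the 7 libraries.

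Leaving out 1 library at a time also turned genes that were not called. Lowest and highest values were -0.37 and 0.082 (*bli-3*), -0.30 and 0.034 (*col-140*), -0.28 and 0.27 (*dpy-10*), -0.11 and 0.082 (*gcs-1*), -0.47 and 0.41 (*gpdh-1*), -0.39 and 0.25 (*gst-4*), -0.028 and 0.62 (*hmit-1.1*), -0.75 and 0.095 (*hmit-1.2*), -0.14 and 0.14 (*hmit-1.3*), -0.11 and 0.31 (*mlt-7*), -0.43 and 0.0027 (*nlp-29*), -0.29 and 0.27 (*pxn-1*), -0.10 and 0.50 (*skpo-3*), -0.28 and 0.14 (*snf-12*), -0.25 and 0.16 (*sta-2*) and -0.12 and 0.19 (*tps-1*). Depth limited genes near 0, such as *gst-19* and *ins-8*.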

Other observations

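Beyond the genes described above, 14 further lists (469 genes tested, among them ribosomal proteins, muscle and germline genes, chaperones, F-box A genes, neuropeptides, guanylyl cyclases, fatty acid enzymes and the TGF-beta body size pathway) had 0 called genes in either direction by edgeR. At an unadjusted P below 0.05 they held 12 higher and 18 lower, and DESeq2 called 2 higher and 2 lower. Their median log2 fold changes lay between -0.32 and 0.19.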
